A study of Homo sapiens with 6 samples.

Results

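RNA that sedimented free of ribosomes was compared with RNA in the monosome fraction, which carries 1 ribosome, for the level of 5-methylcytosine (m5C) at single sites. Both libraries came from wild-type HEK293T cells, a human embryonic kidney line, lysed in a buffer with cycloheximide, which holds ribosomes in place on mRNA. The lysate was separated on a sucrose gradient into 6 fractions, poly(A) RNA of each was treated with bisulfite, and each fraction was sequenced as 1 library. Bisulfite makes unmethylated cytosine read as T while m5C is still read as C, so the m5C level of a site is the share of its C and T reads that carry C. The sites compared were those listed in both libraries with at least 20 reads in each, and there were 74 of them among 275 sites listed in either library and 542 listed in any of the 6. With 1 library a side there were no replicates, and every test below compares these libraries, not the conditions.

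In mRNA, m5C is deposited at sites of 2 kinds. Type II sites are followed by UCCA and are methylated by NSUN6, and Type I sites in mRNA, most of which have a G-rich stretch downstream, are methylated by NSUN2. Mitochondrial 12S rRNA carries m5C as well, written by NSUN4 inside mitochondria. In the counts below, every site without UCCA is called Type I, the 12S rRNA site included, whatever enzyme writes it. Free RNA holds transcripts that no ribosome has engaged, including noncoding RNA and mRNA in storage or repression, while a monosome marks an mRNA with a single ribosome on it, as is common for short coding sequences and for low initiation. The study asked whether m5C in mRNA is related to translation.

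The sites past the threshold and some that frame them are shown with 10 nt on either side, 5′ to 3′ on the strand of the transcript, in DNA letters of GRCh37. Capitals mark the methylated C and, at Type II sites, the TCCA that follows it. The first 7 are the sites whose level differed between the libraries, the next 2 were read deeply and had near-equal levels, and the last 4 were listed in 1 of the libraries only.
MT-RNR1: acacaccgccCgtcaccctcc
RPSA: gtgttatatcCTCCAggaata
RP11-182B22.2: gtgtcatatcCTCCAggaata
RPS29: acggtctgatCcggaaatatg
RPS2P5: gatggggaacCgcggtggctt
SLC25A5: acccgtctagCagctgatgtg
SLC25A39: catcagccccCTCCAgcaaat
SLC25A6: ccgccgccatCTCCAagacgg
RPS3: acagggtgtgCtgggcatcaa
RPPH1: tcagactgggCaggagatgcc
QARS: cctcccgactCagggataccc
FURIN: gaggccacctCTCCAagggct
PVRL2: ccctctgcatCTCCAaagagg
The windows of RPSA and RP11-182B22.2 differ before conversion and are identical once every C is read as T. The RPS2P5 window is the same as that of RPS2, and the RPS3 window is shared by its processed pseudogenes RPS3P6 and RP11-778D9.4.

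The free list held 172 sites with 764521 reads, and the monosome list 177 sites with 156825 reads. The 5 sites with the most reads took 85.6% of the free reads and 68.9% of the monosome reads, so the median coverage per site was close, at 75 and 68 reads. The shared sites made up 43.0% of the free list and 41.8% of the monosome list. A further 98 sites were in the free list without being in the monosome list, and 103 were the other way round. A list holds only sites that passed the calling filters, with a level of at least 10%, so a site absent from one list may have had few reads or a low level there. The lists hold no other transcripts, so the identity of the cells was not checked against marker genes.

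Levels were close at the 74 shared sites, which by the calling filter had reached 10% in both libraries. Their median was 20.7% in free RNA and 18.7% in monosomes, and the median difference, free minus monosome, was -0.22 percentage points, with quartiles of -4.05 and 2.68. Free RNA had the higher level at 33 sites and monosomes at 40, and 1 site was equal. Sites that fell under 10% in either library are not among the 74, so the closeness is in part set by the filter. Across sites, levels correlated with Pearson's r of 0.872 and Spearman's rho of 0.837, given as a description because sites of a library share its depth and several share their sequence. A two-sided Fisher's exact test was run on the C and T reads of every site, and after Benjamini-Hochberg adjustment over the 74 sites 7 of them passed a threshold of 0.05 (9.46%). Of these, 2 were higher in the free library (2.7%) and 5 in monosomes (6.76%).

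**Figure D1:**
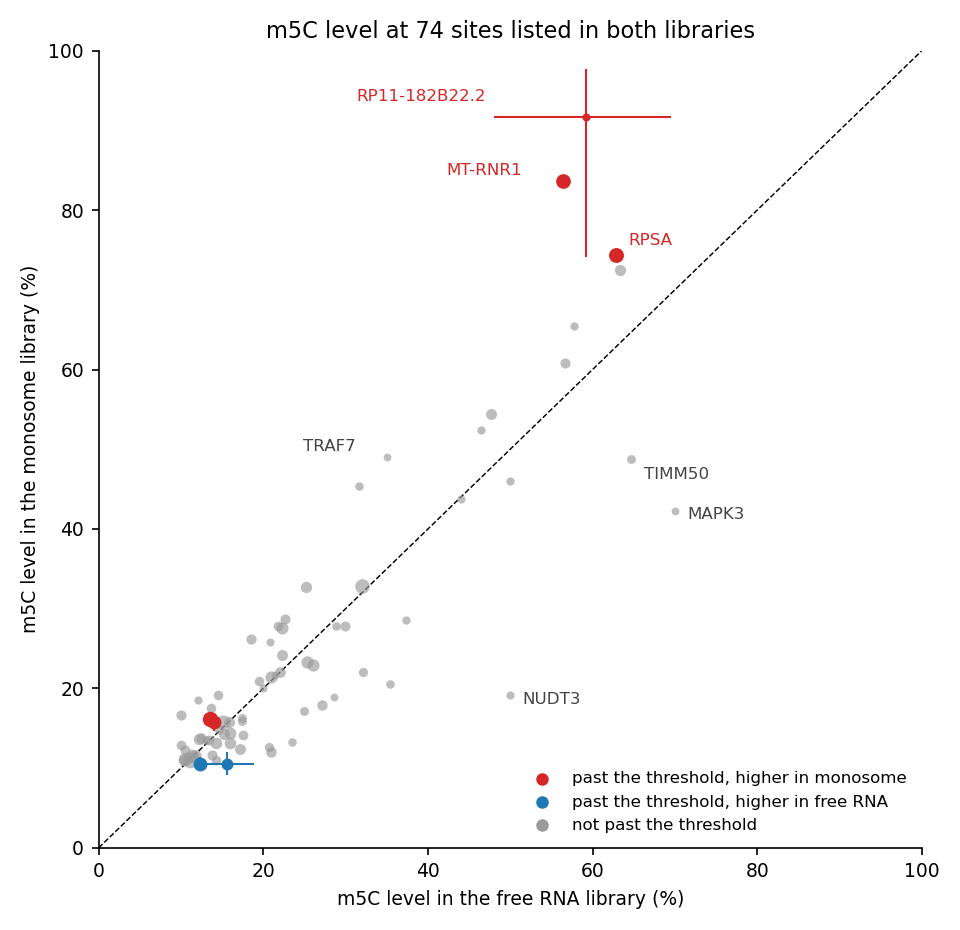
The m5C level in the free RNA library (x axis, percent) is plotted against that in monosomes (y axis, percent) for the 74 sites listed in both. Larger points had more reads in the shallower library, bars are 95% Wilson intervals drawn for the 7 sites past the threshold, and the dashed line marks equal levels. MT-RNR1, RPSA and RP11-182B22.2 lie above the line at high levels, while the sites farthest below it, NUDT3, MAPK3 and TIMM50, did not pass the threshold.

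The 5 sites higher in the monosome library lay in the mitochondrial 12S rRNA, in mRNAs of small-subunit ribosomal proteins and in processed pseudogenes of such proteins. The site of MT-RNR1, the 12S rRNA of the mitochondrial ribosome (ENSG00000211459), lies on the plus strand of the mitochondrial genome, at position 1488. The share of C reads was 56.4% in free RNA (95% interval by Wilson's method 56.2% to 56.7%, 198440 reads) and at 83.7% in monosomes (83.0% to 84.3%, 11494 reads). The difference was -27.2 percentage points (Newcombe 95% interval -27.9 to -26.5), and Fisher's exact test gave a p too small to be represented. This RNA belongs to the ribosome of mitochondria, not to the cytosolic ribosomes that define the fraction. It also had the largest imbalance of reads toward the free library of all shared sites, with 17.3 times as many reads there, against a median of 1.26 times.

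RPSA (ENSG00000168028), which encodes a protein of the small cytosolic ribosomal subunit, has a Type II site in the CDS of exon 3 of 7, at position 39450197 of chromosome 3, plus strand. In free RNA 62.9% of its reads carried C (62.5% to 63.2%, 78676 reads), and in monosomes 74.3% did (73.7% to 75.0%, 15321 reads). The difference was -11.5 percentage points (-12.3 to -10.7), and Fisher's exact test gave an adjusted p of 1.04e-168. RPS29 (ENSG00000213741), another small-subunit protein, has a G-rich Type I site in the CDS of exon 2 of 3, at position 50052737 of chromosome 14, minus strand. It held more reads than any other site in the free library, and its level was 13.5% there (13.4% to 13.7%, 225979 reads) and 16.1% in monosomes (15.7% to 16.5%, 26073 reads). The difference of -2.56 percentage points (-3.03 to -2.09) was small and passed the threshold (Fisher's exact test, adjusted p of 2.55e-27).

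Copies of RPSA gave values on the same side. RP11-182B22.2 (ENSG00000226498), a processed pseudogene on chromosome 1 with its site at position 236983169, plus strand, was at 59.2% in the free library (48.0% to 69.6%, 76 reads) and at 91.7% in monosomes (74.2% to 97.7%, 24 reads). The difference of -32.5 percentage points (-45.2 to -12.1) was the largest of all shared sites, had the fewest reads of the 7 calls, and passed (Fisher's exact test, adjusted p of 0.0332). The call was lost in 3 of 6 alternatives, over which its adjusted p in Fisher's exact or the scaled chi-square test ran from 0.0332 to 0.199, Bonferroni adjustment giving the highest. RPSAP15, a processed pseudogene on chromosome X, was at 63.4% (677 reads) and 72.5% (280 reads), and missed the threshold (Fisher's exact test, adjusted p of 0.0568). RPSAP58 was at 57.7% (213 reads) and 65.5% (29 reads), an interval of -23.8 to 11.5 for the difference. These 3 pseudogenes and RPSA share 1 converted window of 21 nt, and 33 other places in the converted genome match it, so reads of one copy may be counted at another and their values are not separate evidence. The windows of the other calls had such matches too, 50 for MT-RNR1, 8 for RPS29, 14 for RPS2P5, 21 for SLC25A39 and 1 for SLC25A5. Whether reads of those sites came from other places was not tested.

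The RPS2 copies were less uniform. RPS2P5 (ENSG00000240342), a processed pseudogene at position 118683952 of chromosome 12, plus strand, had 14.0% in the free library (13.5% to 14.5%, 17934 reads) and 15.8% in monosomes (14.7% to 16.9%, 4140 reads). Its difference of -1.79 percentage points (-3.03 to -0.59) passed the threshold (Fisher's exact test, adjusted p of 0.0359), and was lost in 4 of 7 alternatives, with adjusted p from 0.0221 to 0.251, the highest with Bonferroni adjustment. RPS2 itself, which encodes a small-subunit protein, has the same window and was at 15.1% (36770 reads) and 15.8% (5959 reads), a difference of -0.73 with an interval of -1.75 to 0.24 that holds 0. The pseudogenes RPS2P55, RP11-452G18.2 and RP3-337H4.6, named after their values were seen because they hold this window too, were higher in the free library by 0.87, 1.04 and 0.16 percentage points, and none of them passed the threshold.

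Both sites higher in the free library lay in mRNAs of carriers of the inner mitochondrial membrane. SLC25A39 (ENSG00000013306), a carrier needed for glutathione import into mitochondria, has a Type II site in the CDS of exon 2 of 12, at position 42400897 of chromosome 17, minus strand. C was read at 15.6% in free RNA (12.8% to 18.9%, 538 reads) against 10.5% in monosomes (9.12% to 12.0%, 1768 reads), so the difference was 5.15 percentage points (1.95 to 8.72). SLC25A5 (ENSG00000005022), an ADP/ATP carrier, has a Type I site without a G-rich stretch in the CDS of exon 2 of 4, at position 118603937 of chromosome X, plus strand. It stood at 12.4% in free RNA (11.7% to 13.1%, 8544 reads) and 10.5% in monosomes (9.62% to 11.4%, 4435 reads), which differ by 1.89 percentage points (0.73 to 3.01). The adjusted p by Fisher's exact test was 0.0239 at each, both monosome levels sat just above the 10% filter, and both calls were lost with Bonferroni adjustment, which left 3 of the 7.

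**Figure D2:**
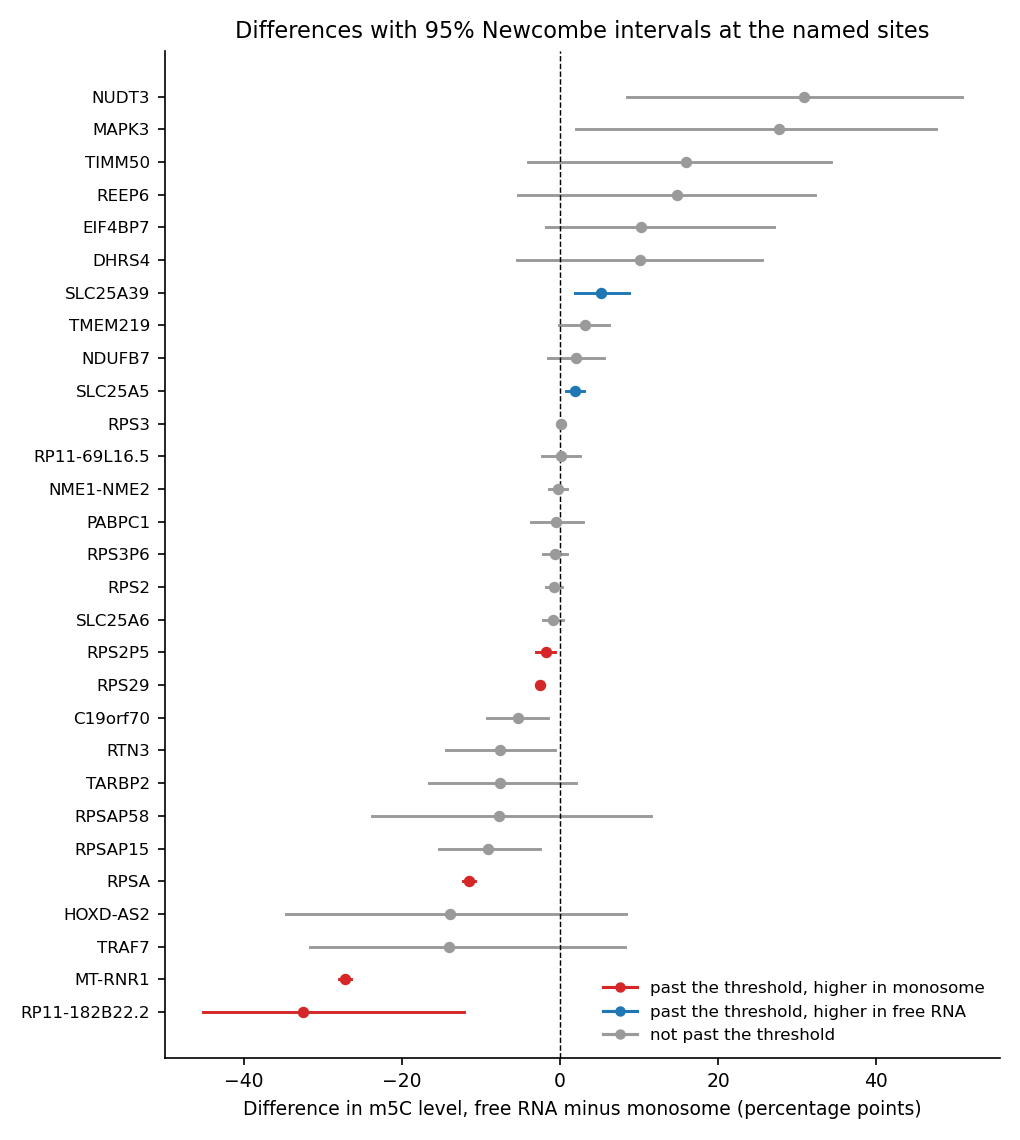
Difference in m5C level, free RNA minus monosome, in percentage points (x axis) for the 29 named shared sites (y axis, by gene), with 95% Newcombe intervals as lines. The intervals of RPS3, RPS29 and RPSA are narrow, those of NUDT3, MAPK3 and TRAF7 are wide, and the 7 colored sites are those past the threshold.

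Large differences that did not pass the threshold rested on few reads. Of 11 sites that differed by at least 10 percentage points, 8 did not pass and 9 had under 100 reads in a library. NUDT3, a phosphatase of diphosphoinositol polyphosphates, has a G-rich Type I site in its 3′ UTR at 50.0% in the free library (26 reads) and 19.1% in monosomes (47 reads). Its difference of 30.9 percentage points (8.46 to 50.8) missed the threshold (Fisher's exact test, adjusted p of 0.0614). MAPK3, the kinase ERK1, has a Type II site in its CDS at 70.0% (20 reads) and 42.3% (52 reads), and missed it as well (Fisher's exact test, adjusted p of 0.281). TIMM50, a subunit of the inner-membrane protein import complex of mitochondria, was at 64.7% (51 reads) and 48.8% (43 reads), and REEP6, a protein of the endoplasmic reticulum, at 35.4% (48 reads) and 20.6% (34 reads). DHRS4, a dehydrogenase, and EIF4BP7, a pseudogene of EIF4B, were higher in the free library by 10.1 and 10.2 percentage points, with intervals that hold 0.

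On the monosome side, TRAF7, a ubiquitin ligase, had a Type II site at 35.0% in the free library (20 reads) and 49.1% in monosomes (369 reads). HOXD-AS2, an antisense RNA of the HOXD cluster, was at 31.6% (38 reads) and 45.5% (33 reads). TARBP2, the partner of Dicer, differed by -7.65 percentage points (-16.6 to 2.01), and RTN3, a reticulon of the endoplasmic reticulum, by -7.55 (-14.4 to -0.60). C19orf70, a subunit of the complex that shapes mitochondrial cristae, had more reads than these, 2097 and 653, and levels of 22.2% and 27.6% (Fisher's exact test, adjusted p of 0.0550). Among sites with at least 50 reads in both libraries, it and RPSAP15 passed as well, and the number past the threshold was 8 of 51.

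Several deeply read sites had levels that differed little. RPS3, a small-subunit ribosomal protein with a G-rich Type I site in its CDS, was at 11.1% in the free library (114888 reads) and 11.0% in monosomes (45532 reads), a difference of 0.13 percentage points with an interval of -0.21 to 0.47. SLC25A6, a close relative of SLC25A5 with a Type II site in the CDS of exon 1, was at 32.0% (11778 reads) and 32.9% (9656 reads), a difference of -0.85 (-2.11 to 0.41). PABPC1, the cytoplasmic poly(A)-binding protein, was at 20.9% (751 reads) and 21.4% (2894 reads). NME1-NME2, a readthrough transcript of nucleoside diphosphate kinases, and the pseudogenes RPS3P6 and RP11-69L16.5 differed by at most 0.61 percentage points in either direction. NDUFB7, a subunit of respiratory complex I, and TMEM219, a membrane protein, were higher in the free library by 2.04 (-1.54 to 5.49) and 3.13 (-0.17 to 6.19) percentage points. Of the 67 sites that did not pass, the interval of the difference stayed within 5 percentage points either way at 11 and within 10 at 23, so at the rest a difference beyond 10 percentage points was not excluded.

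Along the rest of the gradient the sites past the threshold did not follow a common course. RPSA had 63.2% in the small subunit and 66.1% in the large subunit library, reached its highest level, 74.3%, in the monosome library, and was at 63.9% and 55.2% in the light and heavy polysome libraries. RPS29 was at 13.5% and 14.4% in the small and large subunit libraries and was not in the lists of either polysome library. The MT-RNR1 level was 59.7% with the small subunit, 76.5% with the large subunit, 83.6% in light polysomes and 77.8% in heavy polysomes. For SLC25A39 the free value of 15.6% stood above all other libraries, which held 11.3%, 10.6%, 10.5%, 11.1% and 12.1% in the order of the gradient, although its interval of 12.8% to 18.9% overlapped those of the light (9.51% to 12.8%) and heavy (9.08% to 16.0%) polysome libraries. SLC25A5 was at 11.4% and 11.7% in the small and large subunit libraries, between its free and monosome values.

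**Figure D3:**
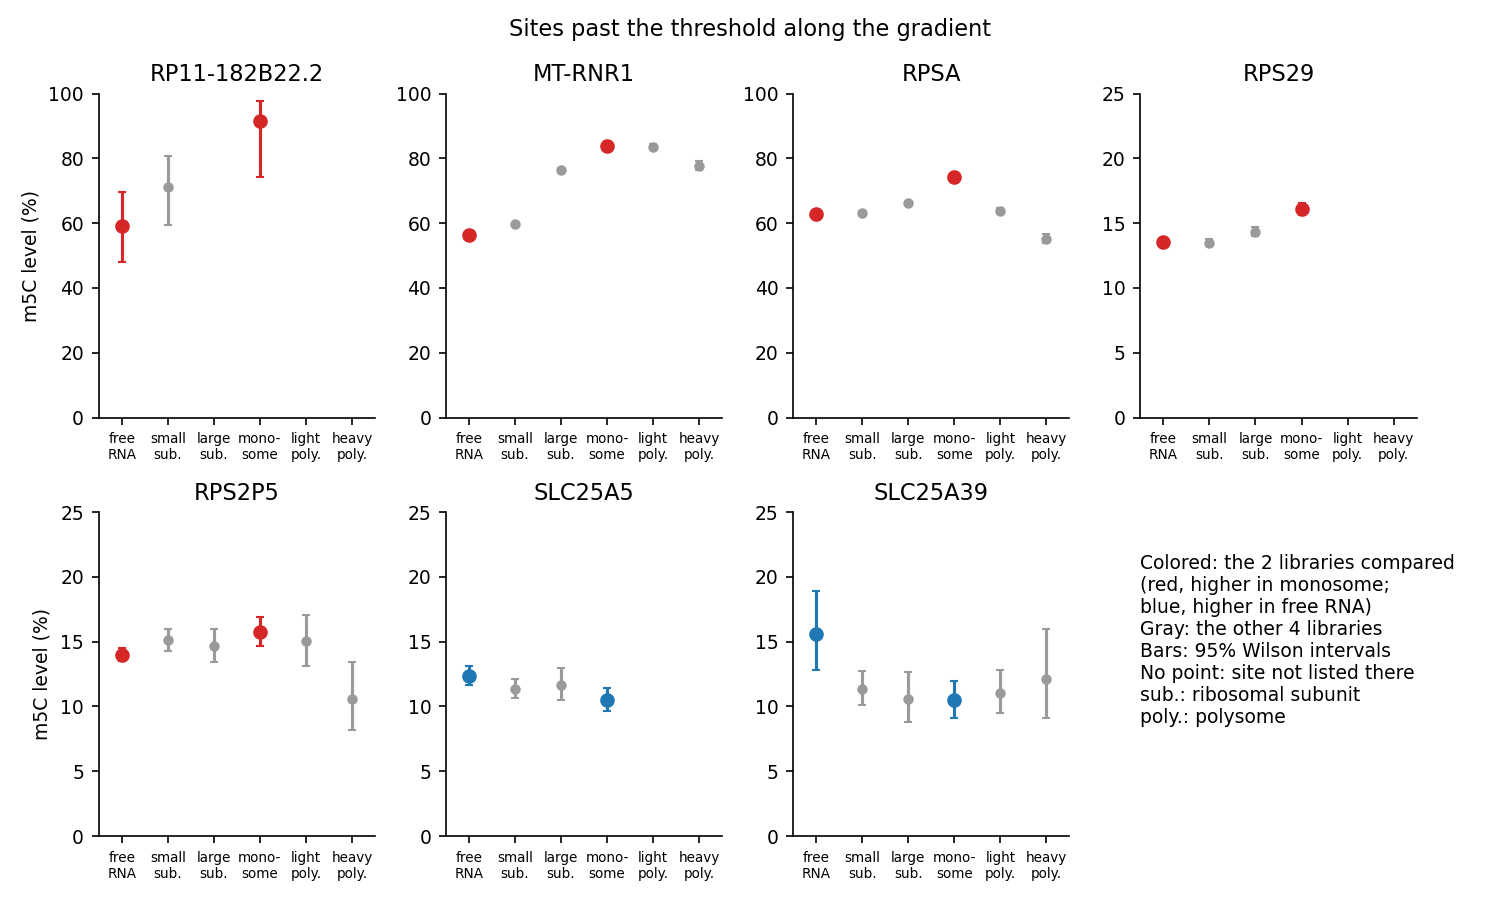
m5C level in percent (y axis) of the 7 sites past the threshold in each library of the gradient that lists them (x axis), with 95% Wilson intervals as bars. Colored points are the free and monosome libraries, gray points the other 4, and the y axis runs to 100% for RP11-182B22.2, MT-RNR1 and RPSA and to 25% for the other 4 sites. The RPSA level peaks in the monosome library, while SLC25A39 is highest in the free library.

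By site type the shared sites were 33 Type II and 41 Type I, 28 of the latter G-rich and 1 of them the 12S rRNA site. The median difference was -0.04 percentage points for Type II sites, with 16 higher in the free and 17 in the monosome library, and -0.61 for Type I sites, with 17 and 23. For 34 CDS sites it was -0.63, for 20 sites in 3′ UTRs 0.53 and for 13 in noncoding exons -0.47, against -0.22 for all 74. Of the 7 Type II sites in 3′ UTRs, 6 were higher in the free library, with a median of 2.85 percentage points, and none passed the threshold. Of the Type I sites in 3′ UTRs 4 of 13 were higher there, with a median of -0.64, and of the Type II sites in CDS 9 of 20, with a median of -0.28. In structures predicted by minimum free energy over 101 nt, the methylated C was unpaired at 19 of 33 shared Type II sites and at 12 of 28 shared G-rich Type I sites.

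The gene lists below are small, were matched by symbol, and leave out genes of the same kind under other names. They are set against all 74 shared sites, of which 2.7% passed higher in free RNA and 6.76% higher in monosomes. Of the 74, 33 were higher in free RNA without regard to the test. Of 39 sites with at least 100 reads in both libraries, 2 passed higher in free RNA and 4 higher in monosomes. Of the other 35 these were 0 and 1. Whether the calls in a list go beyond its depth was not tested. Of the 4 shared sites in mRNAs of cytosolic ribosomal proteins, 2 passed, both higher in the monosome library. Median coverage of the 4 was 96782 reads in free RNA and 20697 in monosomes, against 134.5 and 170 for all 74. The median of the list was -1.64 percentage points, and it ran from RPSA at -11.5 to RPS3 at 0.13. Of 5 sites in pseudogenes named after ribosomal proteins, 4 were higher in the monosome library and 1 of them passed. RP11-182B22.2 (-32.5 percentage points), RP11-452G18.2 (1.04) and RP3-337H4.6 (0.16) hold the converted window of RPSA or RPS2 and are outside this list by name. Of these, only RP11-182B22.2 passed. The 8 sites matched by symbol to nuclear-encoded mitochondrial proteins had a median of 1.97 percentage points, 5 were higher in the free library, and the 2 that passed were SLC25A39 and SLC25A5. Median coverage of the 8 was 1690.5 reads in free RNA and 745 in monosomes. For translation factors, which held PABPC1, EIF4B and EIF2S3, the median of 3 sites was -0.52 and none passed. No shared site was matched by symbol to a histone gene or to a gene of the m5C machinery. Sites listed under NSUN5P2 (22.6% in free RNA, 28.7% in monosomes) and NSUN5P1 (29.9% and 27.8%), pseudogenes named after NSUN5 of that machinery, are outside the list by name. Neither passed.

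Gene classes made up different shares of the sites found in 1 list only. Of the 98 sites in the free list only, 66 (67.3%) were in protein-coding genes, 23 (23.5%) in pseudogenes and 8 in noncoding RNA genes. Of the 103 in the monosome list only, 100 (97.1%) were in protein-coding genes and 2 in pseudogenes. With at least 50 reads, pseudogenes were 14 of 61 and 2 of 55 sites, and with a level of at least 20% they were 15 of 43 and 1 of 39. The CDS held 29.6% of the sites in the free list only and 55.3% of those in the monosome list only. Within protein-coding genes the gap was smaller, 29 of 66 sites (43.9%) against 57 of 100 (57%). The median coding length of the genes was 909 nt for the free list only (58 genes), 894 nt for the shared sites (57 genes) and 1504.5 nt for the monosome list only (94 genes). These are descriptions without a test, since presence in a list depends on coverage and on the calling filters.

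**Figure D4:**
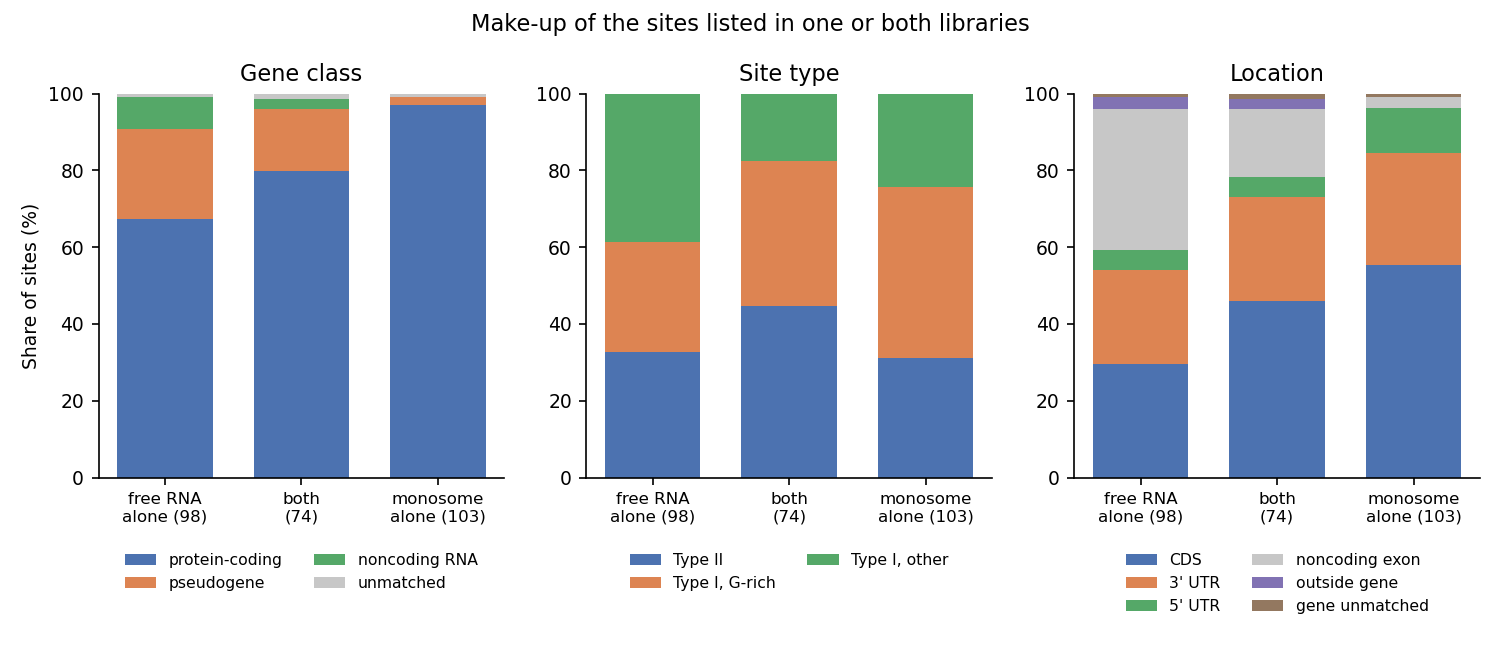
Share of sites in percent (y axis) by gene class, site type and location for the sites in the free list alone, in both lists and in the monosome list alone (x axis, with the number of sites). Orange pseudogenes in the left panel shrink from 23.5% in the free list alone to 16.2% in both and 1.94% in the monosome list alone.

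Among sites in the free list but not the monosome list, that of RPPH1 had by far the most reads. RPPH1 is the RNA of ribonuclease P, the enzyme that trims the leader of tRNA precursors, and its G-rich Type I site on the minus strand of chromosome 14, position 20811393, was at 39.9% (38.8% to 41.0%, 7464 reads). It was at 39.2% (699 reads) with the small subunit and 41.7% (96 reads) with the large subunit, and was not listed beyond it. HINT2, a mitochondrial nucleotide hydrolase, was at 13.8% (566 reads), the ribosomal protein RPL9 at 10.8% (454 reads) and the histone H3.3 gene H3F3B at 21.3% (347 reads). H3F3B was in every list but that of the monosome library, with 24.3% in light and 22.7% in heavy polysomes, so its absence is from 1 list. The pseudogenes RP11-778D9.4 and CTA-276O3.4, copies of the RPS3 and RPS29 windows, were at 10.4% (385 reads) and 16.3% (270 reads).

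High levels in the free list only were mostly found in pseudogenes. Of 12 sites at 50% or more, 10 were in pseudogenes, 1 was in RPSAP58, which the annotation did not match, and 1 was in the 3′ UTR annotated for COMMD1, whose window is that of RPSA. RP11-212P7.1 was at 78.6% (64.1% to 88.3%, 42 reads), RP11-12M9.3 at 73.9% (53.5% to 87.5%, 23 reads), RP11-570G20.1 at 71.9% (54.6% to 84.4%, 32 reads) and RPS2P1 at 70.4% (57.2% to 80.9%, 54 reads). These 4 were listed in no other library, as were 9 of the 12 sites. All 4 were Type I sites without a G-rich stretch. So were those of CTD-3035D6.1, RPS15AP1, RPL29P12, RPS2P7, RPSAP15 and RPSAP58, while those of COMMD1 and RP11-506B6.3 were Type II. Such Type I sites were 38 of the 98 in the free list only and 13 of the 74 shared sites. Which enzyme, if any, methylates them was not tested. Another place in the converted genome matched the window at 21 of the 23 pseudogene sites, though not at RP11-12M9.3, and at 75 of all 98 sites in the free list only, 63 of the 74 shared sites and 74 of the 103 in the monosome list only. Whether their reads come from such places was not tested.

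The monosome list only held mainly mRNA sites that were also seen in denser fractions. A polysome library listed 61 of its 103 sites (59.2%), against 17 of 98 (17.3%) for the free list only, and 58 of the 98 were listed in no other library against 22 of the 103. At 29 sites the free library was the only one of the 6 without the site. Of these 29, 28 were in protein-coding genes, 18 in CDS and 11 were Type II. Of all 103 sites, 100 (97.1%) were in protein-coding genes, 57 (55.3%) in CDS and 32 (31.1%) were Type II. The median level of the 29 in the monosome library was 33.8% at a median coverage of 58 reads. For all 103 these medians were 16.7% and 54 reads. The 29 had to pass the level filter in every library but the free one, so the median levels do not compare like with like.

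**Figure D5:**
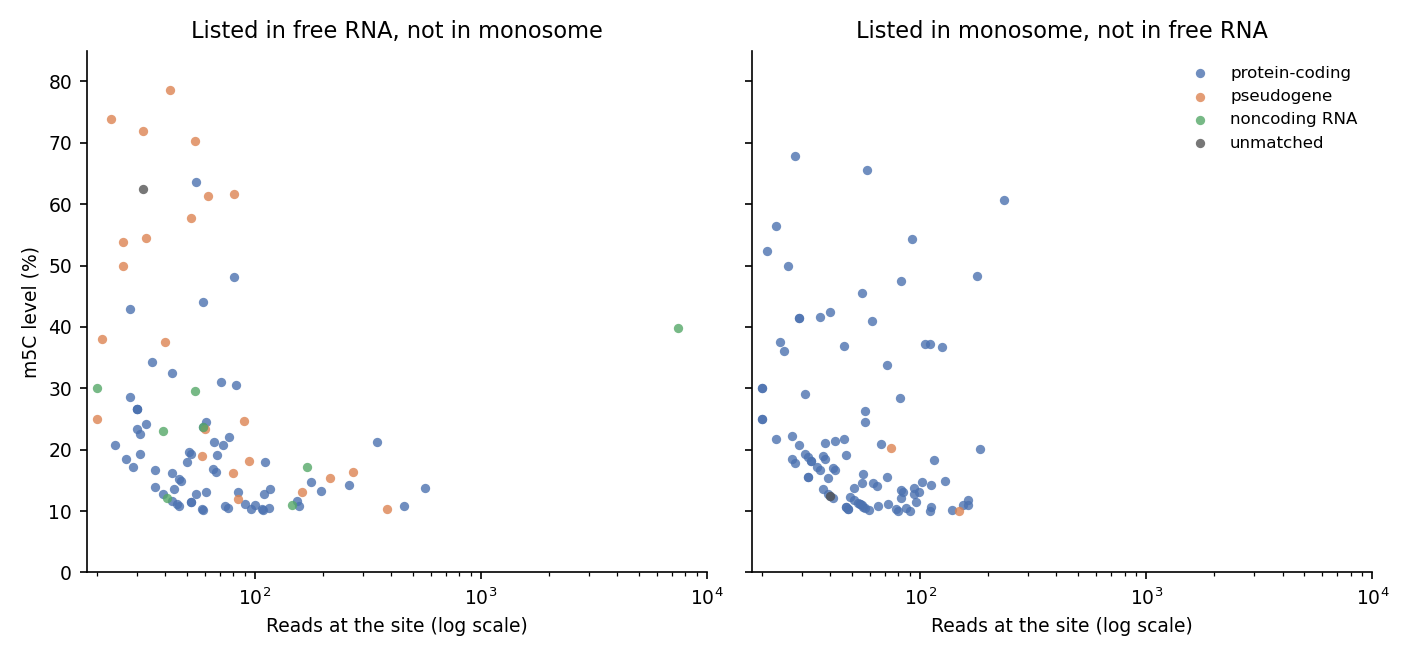
m5C level in percent (y axis) against reads at the site (x axis, log scale) for the 98 sites listed in free RNA and not in monosome (left) and the 103 listed in monosome and not in free RNA (right), colored by gene class. High levels in the left panel are mostly pseudogenes, those in the right panel are all in protein-coding genes, and RPPH1 stands alone at 7464 reads.

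QARS, the glutamine tRNA synthetase, led these sites by coverage. Its G-rich Type I site in the CDS of exon 2, at position 49141833 of chromosome 3, minus strand, reached 60.7% with 234 reads in monosomes (54.3% to 66.7%), was at 62.8% and 59.0% in the small and large subunit libraries, and at 44.8% and 38.0% in light and heavy polysomes. FURIN, a protease that cleaves proproteins, has a Type II site in its 3′ UTR that was at 65.5% in monosomes (52.7% to 76.4%, 58 reads) and at 76.6% in heavy polysomes. PVRL2, the adhesion molecule nectin-2, had 67.9% with 28 reads in monosomes (49.3% to 82.1%) and 86.9% in heavy polysomes (382 reads), and PLD3, a lysosomal protein, at 54.3% (92 reads) and 53.1%. Each was listed in all libraries but the free one. GIPC1, an adaptor with a PDZ domain, was at 20.1% (184 reads) and SZRD1 at 48.3% (178 reads), and both were absent from the free list alone. APBA2 at 56.5% (23 reads) and PIGQ, an enzyme of GPI anchor synthesis, at 52.4% (21 reads) rested on few reads. CS, the citrate synthase, FKBP10, a chaperone of collagen, and ATP5SL were between 11.0% and 11.7%, near the filter.

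In 3 genes the free list had a site that the monosome list lacked while the monosome list had a site elsewhere in the gene. RPL32, a large-subunit ribosomal protein, had a Type I site in its 5′ UTR at 16.4% (67 reads) in the free list and a Type II site in its 3′ UTR at 10.7% (112 reads) in the monosome list, and neither library listed both. The window of the 5′ UTR site matched 27458 other places in the converted genome, and that of the 3′ UTR site 21. RPSAP58 and RPSAP15 each had a further Type I site in the free list, at 62.5% (32 reads) and 53.8% (26 reads), beside the Type II site shared by both libraries.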

How the data were processed

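Per the study's methods and the labels, the authors used cutadapt 1.13 and Trimmomatic 0.36 for trimming and aligned reads with HISAT2 2.10 against the GRCh37 genome after in silico conversion, then the unplaced reads with Bowtie2 2.2.9 against transcripts. Bases of quality 30 or more were used. Coverage was deposited as unscaled counts of the C and T reads covering a site. The level was deposited as a fraction, C reads over C and T reads. The deposited p-value comes from the authors' one-sided binomial test and was not used here. Each file lists called sites alone, with a level of at least 10% and at least 20 reads. The authors filtered reads with many unconverted cytosines, and whether the deposited counts were taken before or after this is not given in the sources used here. If after, the level of a site near others can be lowered.

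C reads were recomputed as level times coverage, and were whole (within 1e-06) at all 1222 listings. In GRCh37 the listed strand had C at each of the 542 positions, counted from 1. Gene models were GENCODE 44 lifted to GRCh37, in which 534 sites were matched. Sites were compared by two-sided Fisher's exact test, with Benjamini-Hochberg adjustment over 74 sites and a threshold of 0.05. The test was also run on simulated reads drawn independently of each other, as it assumes. That run cannot show its error rate where reads are duplicated or misplaced. Levels have Wilson and differences Newcombe 95% intervals, which cover counting error only, as reads had no molecular identifiers. A window is the site with 10 nt on either side in the spliced transcript, and was searched on both strands of the converted genome. RNAfold 2.7.2 gave structures over 101 nt. Type I sites with at least 2 G in the next 3 bases were called G-rich. Gene lists were matched by symbol prefix, and RPS6KB2, a kinase that meets the ribosomal prefix, was left out. Named sites were those past the threshold, up to 6 a side with the largest difference among the others, the 10 others with most reads in their shallower library, for each list alone the 6 with most reads and the 6 with the highest level, and genes listed both ways. The members and lists were chosen with earlier results of these data known. Sites were also compared with other filters on coverage, level and gene class, other adjustments, and the free and small subunit reads summed. Analyses used Python 3.11.15, scipy 1.17.1, pandas 2.3.3 and pysam 0.24.0.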

Additional observations from a re-analysis of the deposited data

Results flagged for a closer look

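Sites in neither the free nor the monosome list but in the lists of all 4 other libraries lie outside the comparison, and 3 of 267 sites in neither list were of this kind. EHD4 had a Type II site in its 3′ UTR with a median level of 15.0% over those 4 libraries, DBNL a Type II site in its CDS with 22.9%, and SDCCAG3 a Type I site in its 5′ UTR with 39.3%. Their coverage in the free and monosome libraries is unknown.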

How the results depend on the processing

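No paired analysis was possible because each fraction has 1 library, and no replicate could be left out. Of 51 alternatives for the counts and medians, 28 were classed as near the reported value. The margins were wide, and the 28 include the change of sign in the type difference given below and a median difference of -0.85. The 7 sites past the threshold (2 higher in free, 5 in monosome) became 4 (2 and 2) in protein-coding genes, 5 (2 and 3) with 1 site per converted window, an alternative chosen after seeing the data, and 4 (0 and 4) of 62 with free and small subunit reads summed, of which SLC25A6 was called in no other setting. They became 3 (0 and 3) with a level of at least 20%, with Bonferroni adjustment, with chi-square divided by an inflation factor of 1.57, and with differences of at least 10 percentage points, where the last and the level filter test or count fewer sites by construction. Bonferroni adjustment and the scaled chi-square kept MT-RNR1, RPSA and RPS29. The level and difference filters kept MT-RNR1, RPSA and RP11-182B22.2. At the 11 sites whose window has no other converted match, 0 passed Fisher's exact test (0 and 0), with 1 at an unadjusted p under 0.05, against 14 of the 74. No call changed direction. With reads summed, 3 of the 7 calls remained, MT-RNR1, RPSA and RPS29, and the adjusted p was 0.0665 for SLC25A5 and for RP11-182B22.2, 0.0898 for RPS2P5 and 0.283 for SLC25A39. Over all their alternatives the adjusted p ran from 0.0126 to 0.171 for SLC25A5 and to 0.283 for SLC25A39. The median difference stayed between -0.85 and -0.04 percentage points except for the coverage-weighted mean, -8.31, in which the top 5 sites held 87.4% of the free reads, and the median was -0.03 on the natural-log odds scale. The Type II median exceeded that of Type I by 0.57 percentage points, and the difference turned to -0.07 with at least 100 reads in both, and was 1.14 with UCCN or UCUA as Type II and 1.75 with 1 site per converted window. Sites in 1 list only numbered 201, with 116 at 50 reads or more and 82 at a level of 20% or more. Depth limited what could be seen: the interval reached a median of 15.6 percentage points to either side with under 100 reads in a library and 3.86 otherwise.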
